A study of Mus musculus with 12 samples.

Results

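The epidermal growth factor (EGF) receptor family and its antisense transcript Egfros were examined in the livers of obese and lean mice. The 9 genes are the receptors Egfr, Erbb2 and Erbb3, the related hepatocyte growth factor receptor Met, the ligands Egf, Hbegf and Areg, the receptor inhibitor Errfi1, and Egfros, which is transcribed from the strand opposite to Egfr. They were chosen by name with the expression values of these livers already in view, so the values below describe the genes and test nothing. All 9 had at least 1 listed transcript in each data set, with 17 of 62486 listed transcripts for HFD and CD livers and 19 of 62945 for db and misty livers.

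Liver RNA came from 12 mice in 4 groups of 3. HFD mice were C57BL/6 animals on a high-fat diet with 54 kJ% of energy from fat, and CD mice were their counterparts on a control diet with 11 kJ% from fat. The db mice carried Leprdb, a mutation of the leptin receptor in every tissue that causes overeating and obesity, and the misty mice, whose genotype label reads Dock7m +/+ Leprdb, served as their lean controls. Both db and misty mice ate the diet with 11 kJ% from fat. All labels give C57BL/6 and 36 weeks of age, whereas the study's methods give the db and misty animals as younger mice of the BKS.Cg-Dock7m line, and in a larger number per genotype than the labelled samples. Total RNA was depleted of ribosomal RNA and sequenced with strand information, and transcripts were assembled from the reads. Expression is given as FPKM, the fragments counted per kilobase of transcript and scaled to the number of mapped fragments, with 1 value per group, pooled over its livers, of which the labels list 3. The spread between livers and the depth of each library are therefore unknown, and no difference below carries an error or a test.

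EGFR is a cell surface tyrosine kinase that binds EGF, heparin-binding EGF (Hbegf), amphiregulin (Areg) and other ligands, pairs with itself or with another ErbB receptor, and signals through the RAS-ERK and PI3K cascades. ErbB2 has no known ligand, and ErbB3 has a weak kinase and signals mainly as the partner of another ErbB receptor. Hepatocytes carry many EGF receptors, and EGFR and MET both take part in the regrowth of the liver after loss of tissue. Errfi1, also called Mig6, binds the EGFR kinase and shuts it off.

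In the GENCODE M21 annotation of GRCm38, Egfr lies on chromosome 11 from 16752203 to 16918158 on the forward strand. Its long coding form has 28 exons and 1210 codons. A short form has 16 exons and 655 codons, ends in its own last exon and lacks the transmembrane and kinase parts of the receptor. Egfros lies on the reverse strand from 16815431 to 16830702 and has 2 exons. Both lie inside the 106.3 kb first intron of Egfr, and 0 of their bases overlap an annotated Egfr exon. The annotated Egfros start is 78.5 kb inside Egfr, so the 2 genes do not share a promoter.

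The sequences upstream of Egfr and Egfros are shown because these 2 members had the lowest ratios in both obese groups. They are the 250 bases before a RefSeq start on GRCm38.p6, 5′ to 3′ on the strand of the gene, with CpG dinucleotides in capitals.
Egfr, chr11:16751953-16752202, forward strand: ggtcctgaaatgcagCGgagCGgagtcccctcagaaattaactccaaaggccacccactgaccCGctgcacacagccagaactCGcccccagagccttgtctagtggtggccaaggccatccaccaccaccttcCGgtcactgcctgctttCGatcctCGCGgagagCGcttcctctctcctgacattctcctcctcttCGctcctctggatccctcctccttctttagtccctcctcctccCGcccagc
Egfros, chr11:16830751-16831000, reverse strand: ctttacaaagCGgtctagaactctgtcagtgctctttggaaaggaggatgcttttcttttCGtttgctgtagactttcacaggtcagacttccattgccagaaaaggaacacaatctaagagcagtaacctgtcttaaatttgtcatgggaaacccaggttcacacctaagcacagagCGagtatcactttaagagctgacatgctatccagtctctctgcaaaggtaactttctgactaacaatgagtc

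The Egfr window had a GC content of 60.8% and 11 CpG dinucleotides, and the Egfros window 42.8% and 3. The medians over the 32536 upstream windows of the same table were 52.4% and 6. Some short motifs were searched on both strands, and a match would be a description of letters, not a binding site. Neither window held TATAAA (the TATA box), which 12.3% of all windows held on either strand. Neither held the CCAAT box, which 33.8% held. TGCTGA, part of the site of MAF proteins, and TTCNNNGAA, a STAT site, were in neither, beside 16.1% and 7.04% of all windows. The antioxidant response element core TGACNNNGC, which was in 10.2% of all windows, was likewise not found. Egfros had a second RefSeq start, whose window is not shown. That window had a GC content of 46.4%, 2 CpG dinucleotides and 0 matches to each of these motifs. The table held entries for 7 of the 9 genes.

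By the most abundant listed transcript of each member, Egfr ranked highest in each of the 4 groups. Ranks here and below are of listed transcripts, not of genes, since loci such as Erbb3, Met, Erbb2 and Errfi1 have further transcripts not listed. Some members are also ranked by a transcript on the opposite strand, as for Met in HFD and CD livers and Erbb3 in db and misty livers. Its FPKM was 22.8 in HFD livers, against 61.9 in CD livers, and its log2 ratio was -1.44, equal to 2.71-fold lower in HFD with 0.1 FPKM added to both values. In the second model the FPKM was 27.2 in db livers, against 137 in misty livers, with a log2 ratio of -2.33, or 5.02-fold lower in db. The FPKM of Egfr was thus below that of the lean group in both obese groups. The listed Egfr transcript was not the same: it lay nearest to the long form in HFD and CD livers and nearest to the short form in db and misty livers. A further 5 assembled transcripts of the Egfr locus in the first data set and 6 in the second are not listed, so these values are not totals of the gene.

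**Figure D1:**
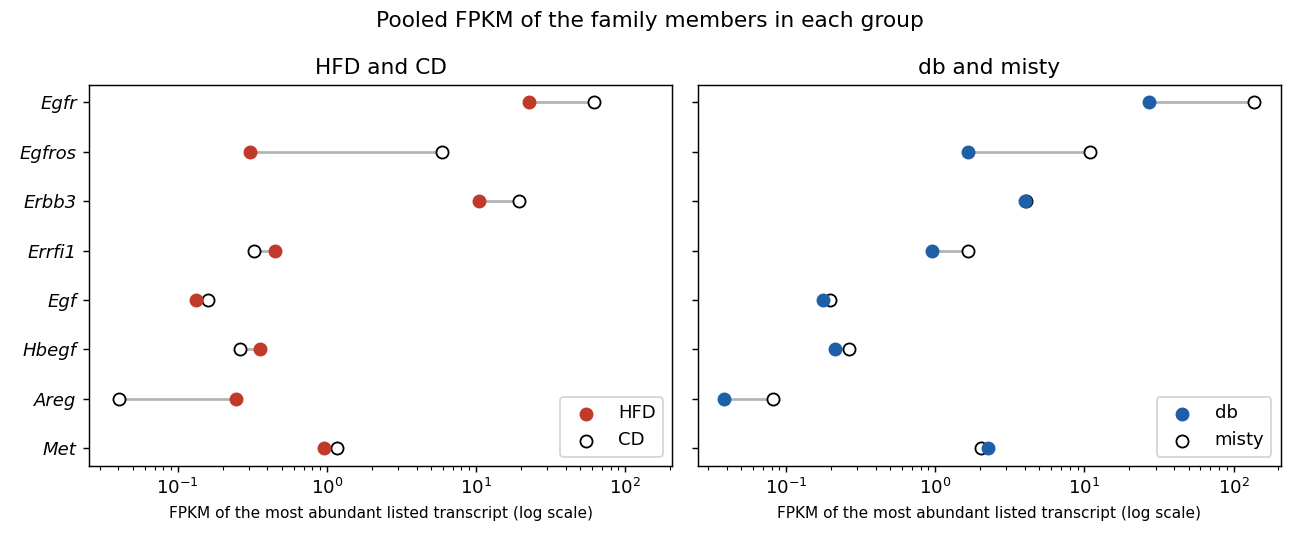
FPKM (log scale) of the most abundant listed transcript of 8 members. HFD (filled) and CD (open) are on the left, and db (filled) and misty (open) on the right. Each point is 1 pooled value of a group, for which the labels list 3 livers. Erbb2, listed near 0, is left out. Egfr and Egfros lie left of the lean value in both panels, at 22.8 against 61.9 FPKM and 0.306 against 5.91 FPKM on the left.

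Egfros, a spliced antisense transcript, had the lowest log2 ratio of all members in both models. It stood at 0.306 FPKM in HFD livers, against 5.91 FPKM in CD livers, with a log2 ratio of -3.89. In db livers it stood at 1.66 FPKM, against 10.9 FPKM in misty livers, with a log2 ratio of -2.65. A further 3 assembled transcripts of the Egfros locus in HFD and CD livers are not listed, against 0 in db and misty livers. The HFD and CD values, and the ranks and shares taken from them, are therefore not totals of the gene. Egfros was thus the third most abundant member in CD livers and the second in misty livers, but ranked 6 in HFD and 4 in db livers. Relative to Egfr, the Egfros level was 1.34% in HFD livers, against 9.54% in CD livers, and 6.08% in db livers, against 7.95% in misty livers. The share of Egfros relative to Egfr thus differed by -2.83 on the log2 scale in HFD, and by -0.39 in db. Each share is relative to the listed Egfr transcript alone, not to the whole gene. That transcript was nearest to the long form in HFD and CD livers and to the short form in db and misty livers. The shares of the models are therefore not on the same base.

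Strand was read from the order in which the assembled loci are numbered, which matched the strand of the named gene for 81.3% to 83.0% of all annotated loci and for 95.7% to 95.9% of those with several assembled transcripts. The strand given for a locus with 1 assembled transcript, such as Areg, Hbegf, Egfros in db and misty livers or most Egf rows, is therefore less certain. Many expressed genes had a weaker listed transcript on the strand opposite to the gene. Among 344 genes with 10 FPKM or more on their own strand in both groups, this opposite transcript had a median level of 5.37% of the own strand in HFD livers (quartiles 2.38% and 16.2%), against 5.51% in CD livers (quartiles 2.47% and 16.8%). The log2 ratio of the HFD share over the CD share had quartiles of -0.21 and 0.06 in these genes, and was -2.83 for Egfros. Among 305 genes in the other model the median was 5.43% in db livers, against 5.54% in misty livers, and the log2 ratio of the shares had quartiles of -0.38 and 0.14, with Egfros at -0.39. The size of the Egfros level was thus within the usual range of opposite-strand transcripts in 3 groups and below its lower quartile in HFD livers. How many Egfros fragments came from unspliced Egfr RNA on the wrong strand was not tested.

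Assembled transcripts upstream of Egfr were also listed at low values. Of 6 assembled forward-strand transcripts within 120 kb upstream of the Egfr start in HFD and CD livers, 5 were at least 1.5-fold lower in HFD. Of these the authors' program tested 2, and with 1 FPKM added in place of 0.1 the count was 0. They lay 10.7 to 114 kb before the start, 1 of them spanning the small RNA gene Gm25698. Their FPKM summed to 0.103 in HFD livers, against 0.918 in CD livers, and single values reached no more than 0.0368 in HFD livers and 0.243 in CD livers. The farthest, Gm12663, stood at 0.740 FPKM in HFD livers, against 0.762 in CD livers. In db and misty livers the assembled span listed for Egfr started farther upstream, at 16624574. The same span was listed for Egfros, Gm12663, Gm12664, Gm24714 and Gm25698. It is thus shared by several genes, and where Egfr transcription itself began cannot be read from it. The neighbours named next were picked after their values were seen. Past the 3′ end of Egfr, Plek, a phosphoprotein of platelets and leukocytes, stood at 2.02 FPKM in HFD livers against 0.682 in CD livers, past 1.5-fold, and, short of it, at 1.62 FPKM in db livers against 1.09 in misty livers. Pno1, a ribosome assembly factor on the same side, stood at 15.7 FPKM in HFD livers against 14.6 in CD livers and at 18.2 FPKM in db livers against 15.4 in misty livers. Lower values were also found on this side. C1d, a nuclear exosome cofactor, had a forward-strand transcript at 1.99 FPKM in HFD livers against 4.83 in CD livers, beside a reverse-strand one at 2.11 FPKM in HFD livers against 1.92 in CD livers. In db livers the C1d transcripts stood at 0.490 and 2.64 FPKM, against 0.475 and 1.52 FPKM in misty livers. Wdr92 stood at 0.895 FPKM in HFD livers against 0.604 in CD livers and at 0.331 FPKM in db livers against 0.710 in misty livers.

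**Figure D2:**
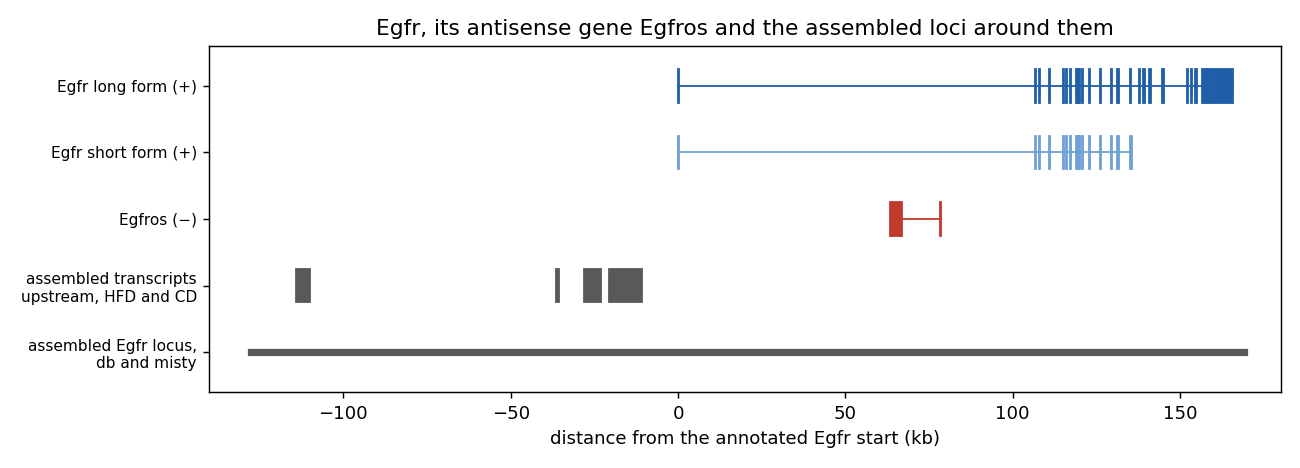
Exons (boxes) and introns (lines) of the long and short forms of Egfr and of Egfros, with the assembled transcripts upstream of Egfr that were lower in HFD. The lowest line is the assembled span listed for Egfr in db and misty livers, which is shared with Egfros and other genes. The axis is the distance in kb from the annotated Egfr start. The 2 Egfros exons fall in the first Egfr intron, 78.5 kb or less from the start, and the 5 upstream transcripts, of which the 2 farthest touch at this scale, lie 10.7 to 114 kb before it.

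The other receptors did not share a pattern. By listed transcript Erbb3 ranked 2 in HFD livers, at 10.5 FPKM, against 19.5 FPKM in CD livers, a log2 ratio of -0.89. A further 6 transcripts of the locus are not listed there. A second Erbb3 transcript, on the strand opposite to the gene, stood at 3.70 FPKM in HFD livers, against 6.24 FPKM in CD livers. In db and misty livers the opposite-strand transcript was the most abundant listed one, at 3.99 FPKM in db livers, against 4.07 FPKM in misty livers. The Erbb3 transcript on its own strand was low there, at 0.400 FPKM in db livers, against 0.533 FPKM in misty livers, with 4 further transcripts of the locus not listed. The listed Erbb3 transcripts were thus lower in HFD on both strands. In db the ratio was close to 1 for the opposite-strand transcript, which is not Erbb3 RNA as annotated. The own-strand transcript had a log2 ratio of -0.34 in db. Which strand had more RNA there cannot be read from the listed transcripts. Erbb2 was listed at 3.84e-08 FPKM in HFD livers, against 1.40e-08 FPKM in CD livers, and likewise near 0 in db and misty livers. The authors' program did not test it, 4 further transcripts of the locus are not listed, and no fold is given.

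For Met, the receptor of hepatocyte growth factor, the most abundant listed transcript differed by less than 1.5-fold in each model. It stood at 0.961 FPKM in HFD livers, against 1.17 FPKM in CD livers, with a log2 ratio of -0.26, and lay on the strand opposite to Met. The own-strand transcript stood at 0.0112 FPKM in HFD livers, against 0.0199 FPKM in CD livers, with 9 transcripts of the locus not listed. The level of Met RNA itself in HFD and CD livers is therefore not known. For db and misty livers the own-strand transcript had 2.27 FPKM in db livers, against 2.03 FPKM in misty livers, with a log2 ratio of 0.16. The 2 opposite-strand transcripts stood at 1.30 and 1.77 FPKM in db livers, against 1.19 and 1.30 FPKM in misty livers.

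Of the ligands, amphiregulin was the only member past 1.5-fold in the upward direction in either model. Areg stood at 0.247 FPKM in HFD livers, against 0.0406 FPKM in CD livers, a log2 ratio of 1.30 that depends on the 0.1 FPKM added at this low level. In the other model Areg was not tested by the authors' program. It stood there at 0.0385 FPKM in db livers, against 0.0817 FPKM in misty livers, with a log2 ratio of -0.39. Hbegf stood at 0.355 FPKM in HFD livers, against 0.263 FPKM in CD livers, and at 0.213 FPKM in db livers, against 0.263 FPKM in misty livers. Its log2 ratios were 0.33 in HFD and -0.21 in db, from a transcript on the strand opposite to the gene. On its own strand Hbegf stood at 0.204 FPKM in HFD livers, against 0.191 FPKM in CD livers, and at 0.126 FPKM in db livers, against 0.135 FPKM in misty livers. Egf had 5 listed transcripts in the first data set and 6 in the second, none of them tested by the authors' program. All but 1 in each set lay on the strand opposite to Egf, so most of these values are not of Egf RNA as annotated. The own-strand transcript was listed near 0 in HFD and CD livers, and at 0.0226 FPKM in db livers, against 0.0496 FPKM in misty livers. The opposite-strand transcript with the highest mean of both groups had 0.133 FPKM in HFD livers, against 0.159 FPKM in CD livers, while another had 0.148 FPKM in HFD livers, against 0.0988 FPKM in CD livers. Summed over all listed transcripts the Egf level was 0.548 FPKM in HFD livers, against 0.492 FPKM in CD livers, so the direction depends on the transcript. For db livers the opposite-strand transcript with the highest mean had 0.177 FPKM, against 0.197 FPKM in misty livers.

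The log2 ratio of Errfi1 had opposite signs in the 2 models. Its FPKM was 0.452 in HFD livers, against 0.326 in CD livers, with a log2 ratio of 0.38. It was 0.946 in db livers, against 1.65 in misty livers, with a log2 ratio of -0.75. A further 3 transcripts of the locus in HFD and CD livers and 2 in db and misty livers are not listed. The HFD and CD values also lie below 1 FPKM. The difference between the models was not tested, since each value is a pool. For neighbours in the order of levels, such as Errfi1 and Hbegf in HFD livers, a difference beyond the spread between livers could not be judged either.

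Of the 9 members, 1 (Areg) was at least 1.5-fold higher in HFD and 3 (Egfr, Egfros and Erbb3) were at least 1.5-fold lower. Over all 19834 transcripts that the authors' program tested, 14.7% were 1.5-fold or more higher in HFD and 10.5% lower. In the second model 0 members were 1.5-fold or more higher in db and 3 (Egfr, Egfros and Errfi1) were lower, beside 16.3% higher and 15.2% lower of 19918 tested transcripts. Since the members were chosen with these ratios known, nothing is read from the counts. The median log2 ratio of all tested transcripts was -0.03 in both models.

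**Figure D3:**
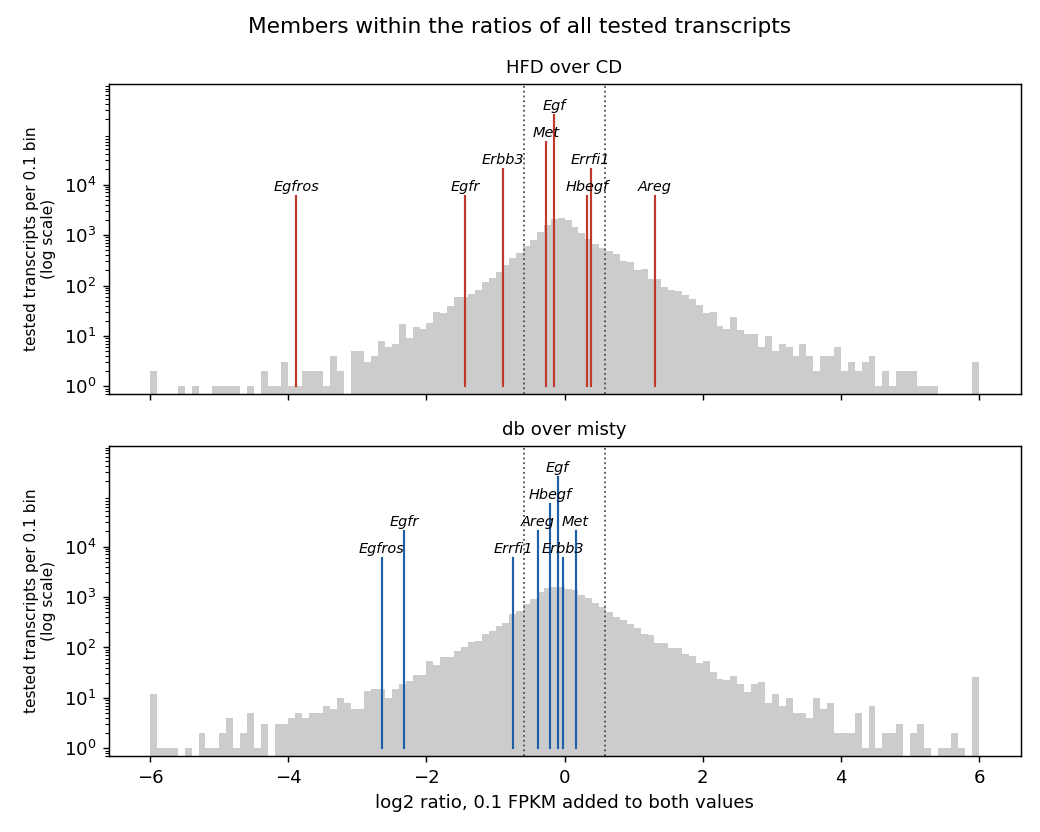
Log2 ratios of 8 members (coloured lines, Erbb2 left out) over the ratios of all transcripts tested by the authors' program (grey, number per bin on a log scale, ratios past the ends put in the end bins), with HFD over CD above and db over misty below; dotted lines mark 1.5-fold, and Egf in both panels and Areg in the lower one were not tested by that program. Egfros at -3.89 and -2.65 and Egfr at -1.44 and -2.33 lie in the left tails.

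The genes whose pair of ratios lay nearest to that of Egfr, among 4080 genes with 1 FPKM or more in all 4 groups, were Gstp1, Nlrp12 and C6. Gstp1, a glutathione transferase, stood at 610 FPKM in HFD livers, against 1532 in CD livers, and at 229.9 FPKM in db livers, against 1392 in misty livers. Its distance from Egfr on the log2 scale was 0.29. Nlrp12, a regulator of inflammation, stood at 1.69 FPKM in HFD livers, against 3.44 in CD livers, and at 1.85 FPKM in db livers, against 8.44 in misty livers. C6, a complement component made by the liver, stood at 28.7 FPKM in HFD livers, against 55.5 in CD livers, and at 2.22 FPKM in db livers, against 13.1 in misty livers. For Egfros the nearest were Gm44194, Mup17 and Acot1, at larger distances of 0.84 to 1.35. Mup17, a major urinary protein, stood at 9.21 FPKM in HFD livers, against 123 in CD livers, and at 13.0 FPKM in db livers, against 188 in misty livers. Acot1, an acyl-CoA thioesterase, stood at 6.22 FPKM in HFD livers, against 48.0 in CD livers, and at 26.1 FPKM in db livers, against 84.7 in misty livers. The FPKM listed for Gm44194 in HFD and CD livers was too large to be read as a level and is not given.

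Further genes of the pathway were counted by list, with 1 tested transcript for each gene and the shares of all tested transcripts given above as background. Of 11 ErbB ligands, 6 were tested in HFD and CD livers, where 4 were at least 1.5-fold higher in HFD and 0 lower, with a median log2 ratio of 1.16. Besides Areg these were Btc (betacellulin), at 1.42 FPKM in HFD livers against 0.651 in CD livers, and, named after their values were seen, Nrg1 (neuregulin 1), at 0.668 FPKM in HFD livers against 0.128 in CD livers, and Ereg (epiregulin), at 0.411 FPKM in HFD livers against 0.0762 in CD livers. Of the higher 4, Btc alone reached 1 FPKM. Among 4 ligands tested in db and misty livers, 2 (Nrg1 and Btc) were higher in db and 0 lower, with a median of 0.24, which turned to -0.54 where 1 FPKM was required, since only Tgfa reached it. Tgfa, the most abundant ligand and likewise named after its values were seen, stood at 6.66 FPKM in HFD livers against 6.06 in CD livers, and at 3.65 FPKM in db livers against 5.34 in misty livers. Erbb4, the fourth ErbB receptor, stood at 1.89 FPKM in HFD livers against 0.712 in CD livers.

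Of the growth factor induced early genes, 6 of 10 tested were higher in HFD and 1 lower, with a median of 0.67, and 0 of 9 were higher in db and 5 lower, with a median of -0.62. Atf3 stood at 1.07 FPKM in HFD livers against 0.289 in CD livers, Fos at 1.15 FPKM in HFD livers against 0.420 in CD livers, and Ier3 at 1.79 FPKM in HFD livers against 0.738 in CD livers. Myc stood at 0.621 FPKM in db livers against 1.62 in misty livers. Egr1 had 5.03 FPKM in HFD livers against 3.0 in CD livers, and 2.83 FPKM in db livers against 5.04 in misty livers. Phlda1 was lower in both obese groups, at 1.28 FPKM in HFD livers against 3.08 in CD livers and at 0.730 FPKM in db livers against 1.34 in misty livers. The medians of this list thus had opposite signs in the 2 models, and the difference was not tested.

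Of the feedback inhibitors of ErbB and ERK signalling, 2 of 14 were higher in HFD and 0 lower, and 1 of 15 was higher in db and 4 lower. Dusp1, a MAP kinase phosphatase, stood at 5.18 FPKM in HFD livers against 2.90 in CD livers. Dusp6, a phosphatase of ERK, stood at 10.7 FPKM in db livers against 4.75 in misty livers, while Dusp4 stood at 1.16 FPKM in db livers against 2.18 in misty livers. Cblb, a ubiquitin ligase, stood at 0.596 FPKM in db livers against 1.04 in misty livers. Adaptors, the RAS to ERK cascade, receptor trafficking and ligand shedding each had at most 1 gene past 1.5-fold in each direction in a model. Among them were the adaptor Shc2, at 1.19 FPKM in HFD livers against 0.0371 in CD livers, and Pik3r1, a PI3K subunit, at 5.32 FPKM in db livers against 3.36 in misty livers. In the hepatocyte growth factor and MET axis, 3 of 9 genes were higher in HFD and 2 of 8 in db, with 0 lower in either. Plaur, the urokinase receptor, stood at 1.34 FPKM in HFD livers against 0.309 in CD livers, and its ligand Plau at 1.35 FPKM in HFD livers against 0.588 in CD livers. Among 16 other receptor tyrosine kinases tested, 4 were higher in HFD and 0 lower, with a median of 0.18. Among 14 in the second model, 1 was higher in db and 2 lower, with a median of 0.04. Axl, a receptor that takes part in the clearance of dying cells, stood at 5.44 FPKM in HFD livers against 2.92 in CD livers and at 5.03 FPKM in db livers against 3.12 in misty livers. Epha2, an ephrin receptor, stood at 2.31 FPKM in db livers against 5.38 in misty livers.

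**Figure D4:**
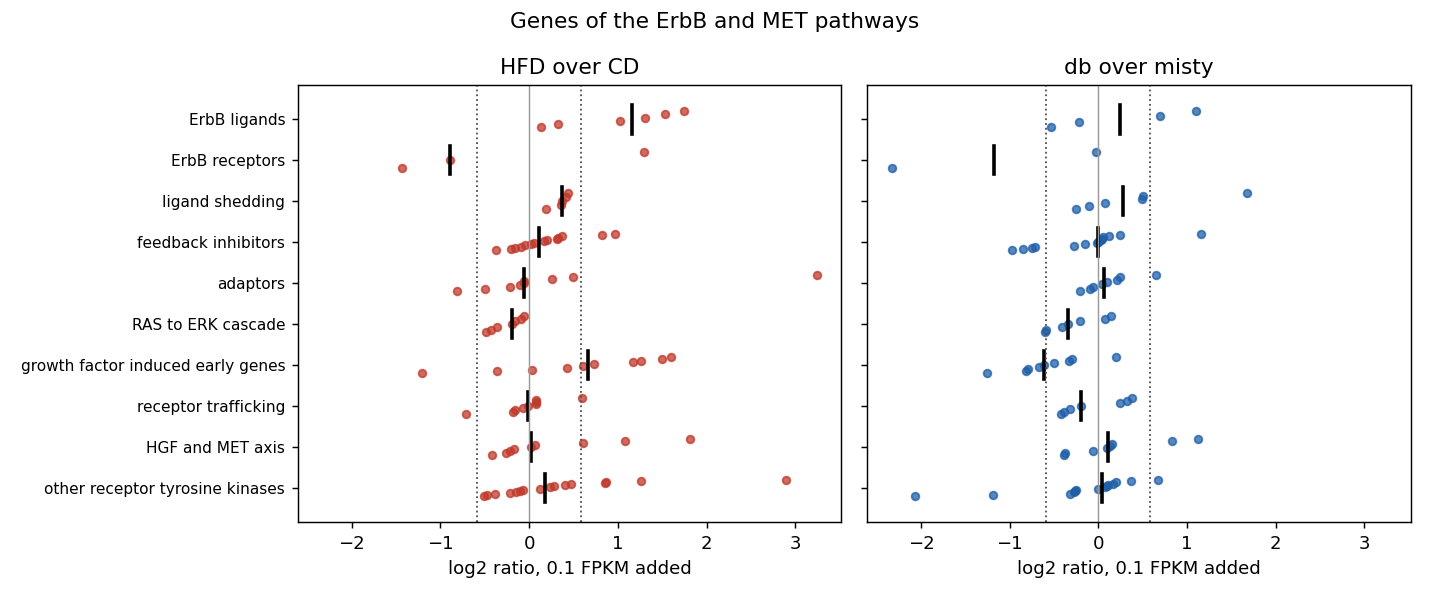
Log2 ratio of each tested gene (points) and the median (black bars) of 10 pathway lists, with HFD over CD on the left and db over misty on the right; dotted lines mark 1.5-fold. The ErbB ligands centre at 1.16 and 0.24, and the early genes at 0.67 and -0.62.

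Markers of liver cell types differed beside these values. Of the hepatocyte markers, 0 of 8 tested were higher in HFD and 3 lower, with a median log2 ratio of -0.43, and their summed level was 8628 FPKM in HFD livers against 14477 in CD livers. Among 9 tested in db and misty livers, 1 was higher in db and 4 lower, with a median of -0.57 and sums of 7893 FPKM in db livers against 13780 in misty livers. These sums rest on Apoa1 and Fabp1, a fatty acid binding protein. Without both, the other 6 markers summed to 3822 FPKM in HFD livers against 4212 in CD livers, with a median of -0.40. The other 7 summed to 4037 FPKM in db livers against 3447 in misty livers, the opposite direction, with a median of -0.29. That db sum rests in turn on Cyp2e1, at 3476 FPKM in db livers against 2631 in misty livers. These counts, medians and sums are of 1 listed transcript per gene, not of gene totals. The marker higher in db was Ttr, at only 3.15 FPKM in db livers against 0.664 in misty livers. Its listed value was 2767 FPKM in HFD livers against 3053 in CD livers. Cyp2e1 was among the markers lower in HFD, at only 1.38 FPKM in HFD livers against 2.81 in CD livers. Apoa1, the main apolipoprotein of high-density lipoprotein, stood at 1847 FPKM in HFD livers against 3659 in CD livers and at 1244 FPKM in db livers against 3623 in misty livers. Alb was listed at 0 in all 4 groups, with a status of too few usable data, so its listed transcript does not check the tissue. Macrophage and monocyte markers were higher in HFD for 9 of 11 and lower for 0, with sums of 96.7 FPKM in HFD livers against 42.8 in CD livers. In db livers 2 of 7 were higher, with sums of 25.6 FPKM in db livers against 25.4 in misty livers. Neutrophil markers were higher in HFD for 4 of 4, lymphocyte markers for 5 of 9, cholangiocyte markers for 5 of 6 and endothelial markers for 3 of 5. Only 2 of these neutrophil markers and 1 of these lymphocyte markers reached 1 FPKM in HFD or CD livers, beside 4 cholangiocyte and 5 endothelial markers. In db 1 of 2 neutrophil markers was higher and 1 lower, and 1 of 3 lymphocyte markers was higher and 1 lower. Of 6 cholangiocyte markers 1 was higher in db and 2 lower, and of 4 endothelial markers 0 were past 1.5-fold. Stellate cell and fibroblast markers were higher in HFD for 1 of 5 and in db for 3 of 7. For adipocytes 1 marker was tested in each model and was higher in the obese group, and of the pancreas markers 1 was tested in each, higher in db but not in HFD. Of the kidney marker genes 0 were tested in HFD and CD livers and 1 in db and misty livers (Slc12a3, at 0.204 FPKM in db against 0.0925 in misty), and Umod was listed at 0 in all groups. The part of these cell types in the levels of Egfr, Egfros, Erbb3 or the ligands was not tested, and in whole liver fewer cells of a type and less RNA per cell cannot be told apart.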

How the data were processed

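The livers (3 labelled samples per group) were sequenced by the authors, trimmed with flexbar, cleared of ribosomal RNA reads with Bowtie2 2.2.9, aligned with STAR 2.6.0c to mm10/GRCm38, and assembled, merged and quantified with Cufflinks 2.2.1 and Cuffdiff. The deposited values are FPKM, which the authors' Cuffdiff gave as 1 pooled value per group and transcript. By its numbering, each row is the first transcript of an assembled locus. The tables also hold the authors' fold changes, test statistics, p-values, q-values and significance calls, which were not used, nor was a column of means. Each table had its own normalization, so levels were set side by side within a table only. A log2 ratio is HFD over CD or db over misty with 0.1 FPKM added. The most abundant listed transcript stood for each member, and the most abundant tested one for each list gene. No own test was possible. Named genes were all members, up to 3 genes each way per pathway list past 1.5-fold reaching 1 FPKM in either group, and the 3 genes nearest to Egfr and Egfros by Euclidean distance. Members and the 20 lists were chosen with earlier results of these data known. Upstream sequences came from RefSeq. Counting was tested on simulated data (Python 3.11.15, pandas 2.3.3).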

Additional observations from a re-analysis of the deposited data

How the results depend on the processing

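With no spread between livers, a ratio was taken as unchanged where it moved by less than 1.5-fold and, if past 1.5-fold itself, kept its sign, and a count where it stayed within 1.5 times. The lower ratios of Egfr in both models kept their sign and stayed past 1.5-fold without a pseudocount, with 1 FPKM added and with centring on the median. With a pseudocount of 1 FPKM the log2 ratio of Egfros in HFD was -2.40, that of Areg in HFD 0.26, the count of members higher in HFD 0, and the count of lower transcripts upstream of Egfr 0. Without a pseudocount Areg stood at 2.61 in HFD and -1.08 in db. Over members with 1 FPKM or more, 0 were higher in HFD. Over list genes with 1 FPKM or more, 28 in place of 49 were higher in HFD and 10 in place of 20 in db, and the median of the ErbB ligands was 0.58 in HFD and -0.54 in db. Summing all listed transcripts and centring on the median left all 9 members in each model unchanged by this measure, as did taking only transcripts on the strand of the gene. For Egfr, Egfros, Erbb2, Errfi1 and Areg, the sum and the own-strand choice returned their only listed transcript. Those settings could therefore not move these members. For Met and Egf in HFD and CD livers, the own-strand values lay far below the 0.1 FPKM added. Their own-strand ratios were thus held close to 0, and that choice is no check of them. Of ratios short of 1.5-fold, Egf in HFD turned from -0.16 to 0.13 with the sum and to about 0 on its own strand, and Erbb2 in db went to -0.04 with centring. The own-strand choice, the summed levels, the hepatocyte sums without Apoa1 and Fabp1 and the pseudocount for the upstream transcripts were chosen after seeing the data. Leaving out a replicate could not be run because each group has 1 pooled value. No paired analysis was possible because the values are pooled over each group's livers. Values near 0 FPKM limit Areg, Egf, Hbegf and Erbb2 most, since the depth is unknown.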
